A study of Arabidopsis thaliana with 58 samples.

Results

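The mitochondrion-encoded genes were taken as all rows of the expression tables whose locus identifier begins with ATMG, the prefix that Arabidopsis thaliana loci of the mitochondrial genome carry. Of 23898 loci with a row in any of the 7 tables, 61 were mitochondrion-encoded. The study asked how Mg deficiency changes the transcriptome of young plants. Columbia-0 plants were grown hydroponically, and part of them was moved to a solution with 0 mM Mg, in which the Mg sulphate was replaced by Na sulphate, while control plants stayed at 1.5 mM Mg. The groups therefore differed in Na as well as in Mg. RNA was sequenced from mature leaves (the first pair of rosette leaves) and expanding leaves (the next pair) on days 3, 5 and 8 of treatment, and from roots on day 3, in plants 13, 15 and 18 days old. Each library came from a composite of a few plants and was kept by the quality of its RNA, and tissues of the same plants may have entered different tables. For mature leaves there were 4 control and 3 Mg-deficient libraries at day 3, 5 and 3 at day 5, 4 and 4 at day 8. The numbers for expanding leaves were 5 and 4 (day 3), 5 and 3 (day 5), 4 and 5 (day 8). Roots had 6 control and 3 Mg-deficient libraries, which made 58 libraries in all.

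The plant mitochondrial genome encodes a small part of the respiratory chain, of the ATP synthase, of the cytochrome c maturation machinery and of the mitochondrial ribosome, with ribosomal and transfer RNAs. Most other subunits, and the polymerases, splicing factors and nucleases that make and process mitochondrial transcripts, are encoded in the nucleus and imported. Mitochondrial messengers carry no stable poly(A) tail, since polyadenylation marks plant mitochondrial transcripts for decay. The libraries here were made from mRNA isolated with beads, so that the levels below are of those mitochondrial transcripts that were carried through such an isolation, and not of the whole mitochondrial RNA. In samples of whole tissue, fewer cells or mitochondria and less RNA in each cannot be told apart.

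A second property of these loci is that the nuclear genome carries a copy of a large part of the mitochondrial genome. Of the 367808 windows of 50 bases, the length of the reads, that tile the mitochondrial genome of the RefSeq reference (assembly TAIR10.1), 70.4% were found letter for letter on chromosome 2 and 0.970% on chromosome 1. Among the 31 protein-coding genes annotated on the mitochondrial sequence, 15 had every window on chromosome 2 and 22 had over 90%, whereas 5 genes (ccmB, nad9, cox1, nad4L and atp4) had none. The large ribosomal RNA gene rrn26 had no such window either, nor had rrn5, and rrn18 had 0.371%. A read that lies wholly in a shared window cannot be assigned by its sequence to the mitochondrion or to the nucleus. How the authors' counting treated such reads is not given in the sources used here. The first bases of the cox3 gene, which encodes subunit 3 of cytochrome c oxidase, and of its copy AT2G07687 are shown because they are the plainest case: the 798 bases of the mitochondrial gene (329976-330773 of the mitochondrial sequence, minus strand) and of the chromosome 2 gene (3311854-3312651, minus strand) had 0 mismatches. The 60 bases printed are 330714-330773 of the mitochondrial sequence and 3312592-3312651 of chromosome 2, in TAIR10.1 coordinates, and the capitals mark the start codon.
cox3, mitochondrial genome: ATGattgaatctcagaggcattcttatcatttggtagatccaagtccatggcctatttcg
AT2G07687, chromosome 2: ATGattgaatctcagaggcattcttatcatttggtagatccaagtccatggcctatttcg
The sharing can also be read from the RefSeq notes, which name an ATMG locus as the counterpart of a chromosome 2 gene for 53 ATMG loci. Only 14 of these had a row in any table and 3 had enough signal to be tested. Of the 47 members without such a note, 19 could be tested. Most of the members tested were therefore loci for which the annotation names no nuclear counterpart. A missing note does not show that the sequence is unshared, as members without a note were not matched to the windows.

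**Figure D1:**
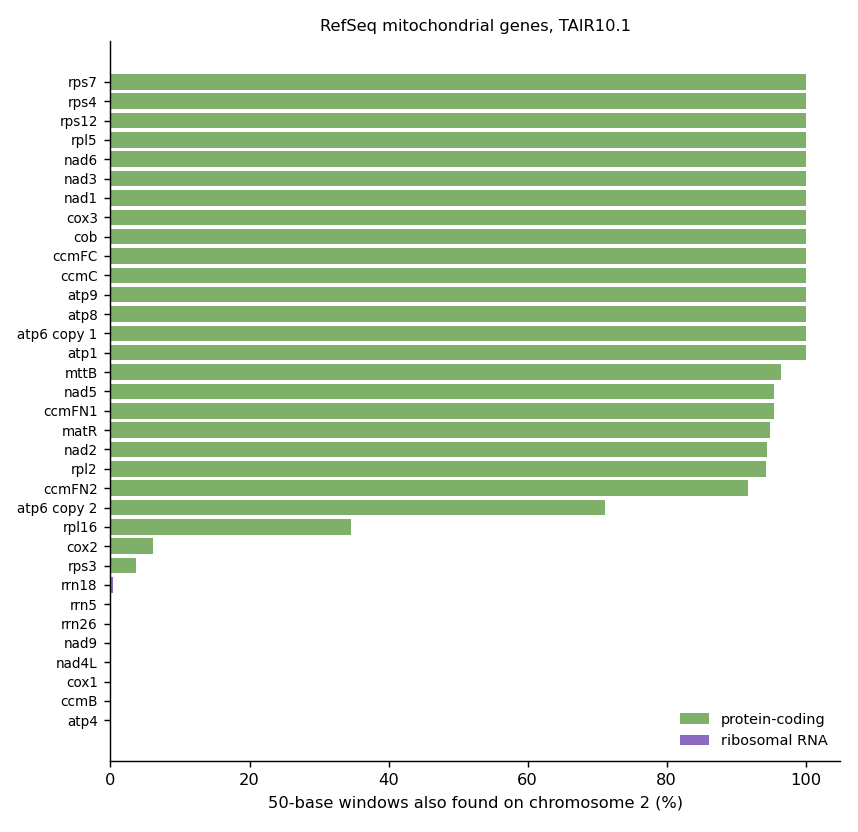
Percent of the 50-base windows of each protein-coding and ribosomal RNA gene of the mitochondrial genome (RefSeq, TAIR10.1) that are found unchanged on chromosome 2. Of the 31 protein-coding genes, 15 reach 100% and 5 stand at 0%.

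The RefSeq and study annotation used here names only part of the members. ATMG00730 is COX3, ATMG00670 is ORF275 (a transmembrane protein), ATMG00180 is a cytochrome c biogenesis protein and ATMG00410 is subunit 6 of the ATP synthase. Most other members, among them the most abundant ones, are given by their identifiers alone, because a name for them is not given in the sources used here. Whether the most abundant ones are messengers or ribosomal RNAs is not given either, so that the shares below are not levels of messengers alone.

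The libraries held 545998 to 4015248 reads (median 1964030), as recovered from the deposited values. Leaf markers (RBCS1A, RCA and CAB1, all with a row in every table) summed to a signal of 13589 to 110722 in leaf libraries and 20.01 to 625 in roots, and root markers (CASP1, PYK10, TIP2;3, COBL9 and EXPA7) summed to 0 to 45.2 in leaves, where 1 to 3 of the 5 had a row, and to 3993 to 6259 in roots, so that the tissue labels fitted their markers. Some libraries stood apart. In mature leaves on day 8, control libraries 2, 3 and 4 had reads on 6908 to 9697 genes, and every other library of the series had reads on at least 12275 genes. In expanding leaves the number of genes with a read did not overlap between the groups on 2 days: on day 8 it was 12275 to 15172 in control plants and 18422 to 18718 in Mg-deficient plants, and on day 5 it was 17206 to 18285 in control plants and 12656 to 16654 in Mg-deficient plants. What part these differences had in the results below was not tested beyond leaving out libraries.

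A member was measured in few libraries at high counts. The number of members with a row was 40, 49 and 43 in mature leaves on days 3, 5 and 8, 33, 39 and 35 in expanding leaves, and 28 in roots. A row was present for 21 members in all 7 tables and for 11 members in 1 table. Members with a mean deposited signal of at least 5 (the unit is a read count adjusted to a common library size within its table) entered the test, which left 16, 22 and 13 members in mature leaves, 6, 11 and 11 in expanding leaves and 7 in roots. In all, 22 members were tested in some table and 39 in none, and 4 were tested in all 7. All members together had 108 to 1063 reads in a leaf library (median 419) and 1540 to 5336 in a root library.

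The share of the signal that fell on mitochondrion-encoded genes was 0.0107% to 0.0520% in the 49 leaf libraries (median 0.0226%) and 0.0783% to 0.230% in the 9 root libraries. No root library overlapped with a leaf library. For the leaf library with the lowest share, Mg-deficient library 2 of expanding leaves on day 5, the 95% Wilson interval of the share of reads was 0.00936% to 0.0122%, and for the highest, control library 2 of mature leaves on day 5, it was 0.0489% to 0.0552%. Such intervals cover counting error only, since the reads carry no molecular identifiers. In the same libraries chloroplast-encoded genes (prefix ATCG) took 0.261% to 3.22% in leaves and 0.130% to 0.217% in roots. Genes of the chromosome 2 insertion took 0.00282% to 0.0400% in leaves and 0.00237% to 0.00528% in roots. The tables were normalised separately, but a share is taken within a library.

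The groups differed in the share in 1 of the 7 tables only, if non-overlapping libraries are taken as the mark. In expanding leaves on day 5 it was 0.0213% ± 0.00415 (SD, n = 5) in control plants, with libraries from 0.0167% to 0.0275%, and 0.0127% ± 0.00225 (n = 3) in Mg-deficient plants, with 0.0107%, 0.0122% and 0.0151%. Every Mg-deficient library lay below every control library, and the ratio of the means was 0.593. No test was run on shares, as they are sums over the members. In the other tables the libraries overlapped. In mature leaves the mean share of control plants was 0.0215%, 0.0390% and 0.0238% over the days, and that of Mg-deficient plants was 0.0250%, 0.0381% and 0.0328%. In expanding leaves it was 0.0181% (control) against 0.0193% (Mg-deficient) at day 3, and 0.0160% against 0.0203% at day 8. Roots had 0.137% against 0.140%.

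**Figure D2:**
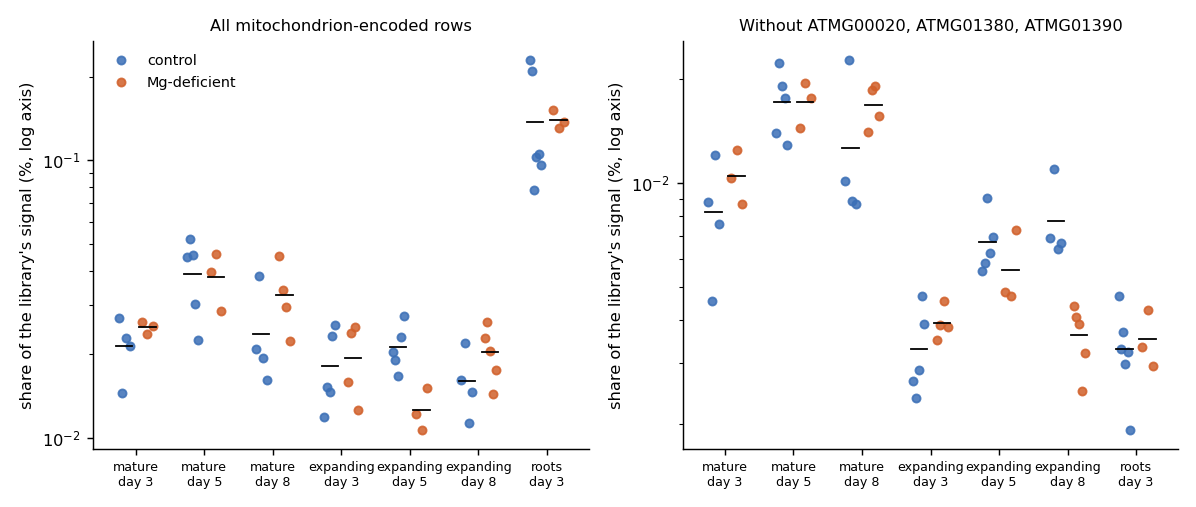
Share of each library's signal on mitochondrion-encoded genes, in percent on a log axis, for all members (one panel) and without ATMG00020, ATMG01380 and ATMG01390 (the other panel). Points are libraries of control and Mg-deficient plants in the 7 tables, and the black line is the group mean. Root libraries lie above all leaf libraries for all members (0.0783% to 0.230% against 0.0107% to 0.0520%) but not without the 3 loci (0.00191% to 0.00470% against 0.00237% to 0.0228%).

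ATMG00020, ATMG01390 and ATMG01380 carried most of the mitochondrial signal in most libraries. Together they made up 29.5% to 84.8% of it in leaves (median 63.4%) and 95.3% to 98.4% in roots. ATMG00020 alone made up 9.50% to 65.5% in leaves and 80.7% to 92.1% in roots. Without the 3 loci the share was 0.00237% to 0.0228% in leaves and 0.00191% to 0.00470% in roots, so that the higher share of the roots was carried by these loci.

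The composition changed in expanding leaves on day 8. There the 3 loci took 51.1% ± 6.01 (SD, n = 4) of the mitochondrial signal in control plants, from 43.2% to 57.1%, and 82.1% ± 1.48 (n = 5) in Mg-deficient plants, from 80.8% to 84.4%. ATMG00020 took 22.1% to 35.5% in control plants and 49.7% to 56.3% in Mg-deficient plants. In neither measure did the groups overlap. The share of all other members in the library was also lower, at 0.00644% to 0.0110% in control plants (mean 0.00776%) against 0.00248% to 0.00440% in Mg-deficient plants (mean 0.00361%). Other organelle-like signal moved in the same libraries. The chloroplast-encoded share was 1.51% ± 0.287 in control plants and 0.282% ± 0.0205 in Mg-deficient plants, and the share of the chromosome 2 insertion 0.0128% ± 0.00367 and 0.00465% ± 0.00107, again without overlap. The other members were also unevenly spread in the control libraries. Of 17 such members with at least 10 reads in these control libraries, 16 had over 50% of them in 1 library, against 2 of 11 in the Mg-deficient libraries. Whether this unevenness, which went with fewer genes having a read, had a part in the change of composition was not tested.

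**Figure D3:**
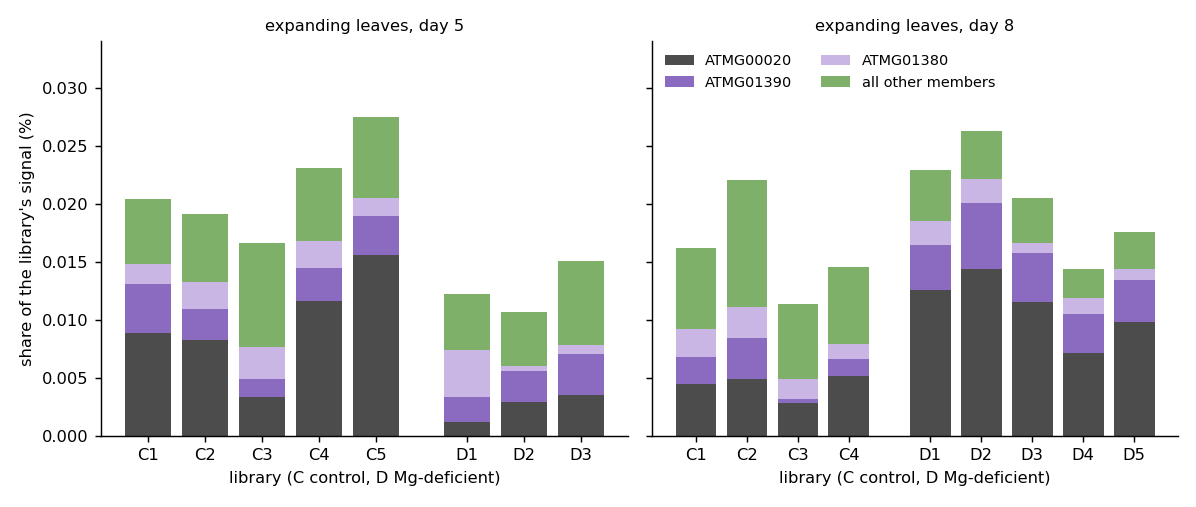
Share of each library's whole signal, in percent, taken by ATMG00020, ATMG01390, ATMG01380 and all other members, in expanding leaves on days 5 and 8. Each bar is a library, and its height is the share of all members. On day 8 the 3 loci take 43.2% to 57.1% of the height of a bar in control plants and 80.8% to 84.4% in Mg-deficient plants.

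In expanding leaves on day 8, 2 of 11 members tested rose in Mg-deficient plants (limma on log2(signal + 1), Benjamini-Hochberg adjusted over all genes of the table) and none fell, whereas 30.8% of all genes tested rose and 14.9% fell. At an unadjusted p under 0.05 the counts were 2 and 1, against 35.8% and 17.4% of all genes. The share of members that rose was thus below that of all genes, and the median log2 fold change was 0.03 for the members and 0.63 for all genes. ATMG00020 had a signal of 84.0, 91.5, 44.8 and 92.1 in the control libraries and 266, 274, 236, 144 and 201 in the Mg-deficient libraries. All Mg-deficient libraries lay above all control libraries, with control library 3 the lowest. The log2 fold change was 1.53 ± 0.29 (SE, adjusted p = 0.00092, limma). It was 1.28 without control library 3 and 0.91 after median-of-ratios scaling (adjusted p = 0.023), under which the median of all genes moved by -0.61. Under the alternatives the adjusted p ranged from 0.00057 to 0.023 and the call was kept in all 19 of them. ATMG01390 had a signal of 43.5, 66.9, 5.28 and 25.3 in control plants and 81.0, 107, 87.1, 67.5 and 75.7 in Mg-deficient plants. The groups did not overlap, but the margin between 66.9 and 67.5 was narrow and the control libraries varied more than the Mg-deficient ones. Its log2 fold change was 1.65 ± 0.57 (adjusted p = 0.031, limma). Leaving out control library 3 brought it to 0.96, with the call kept, while leaving out control library 4 or Mg-deficient library 1, 2, 3 or 5 ended the call (adjusted p = 0.053, 0.059, 0.070, 0.061 and 0.055, limma), as did median-of-ratios scaling (adjusted p = 0.13) and voom (adjusted p = 0.051). The groups did not overlap, with Mg-deficient plants higher, for these 2 members and for 26.1% of all genes tested.

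The third abundant locus, ATMG01380, did not follow. Its signal was 46.9, 49.6, 28.2 and 22.8 in control plants and 44.0, 40.9, 16.9, 28.1 and 18.5 in Mg-deficient plants. The ranges overlapped almost wholly, with a log2 fold change of -0.33 ± 0.44. ATMG00670 (ORF275) had a signal of 10.2, 32.6, 14.0 and 0.572 in control plants and 2.0, 0.995, 6.01, 0 and 0 in Mg-deficient plants. Of the control libraries 3 lay above all Mg-deficient libraries and library 4 had no read, and the log2 fold change of -2.20 ± 0.90 missed the threshold (adjusted p = 0.063, limma). It was passed with a pseudocount of 5 (adjusted p = 0.047), after median-of-ratios scaling (adjusted p = 0.036), without control library 4, at -3.08 (adjusted p = 0.0072), and without Mg-deficient library 3, at -2.64 (adjusted p = 0.038). As ATMG00670 passed the limit of 5 only through the control group, these results are descriptions and support no count of members. ATMG00830 had a signal of 15.1, 1.86, 0.137 and 0.234 in control plants and 4.54 to 9.97 in Mg-deficient plants (log2 fold change 1.47 ± 0.78, adjusted p = 0.14, limma). ATMG01170 shows how single libraries carried a member in this table, with 2, 54, 1 and 0 reads over the control libraries but no more than 8 in any Mg-deficient library. COX3 (ATMG00730) was in the same way carried by control libraries 3 and 4, with a signal of 23.7 and 21.1 against 0.202 and 0 in the other control libraries and 0 to 1.79 in Mg-deficient plants. The remaining members tested had log2 fold changes from -0.98 to 0.75, and none passed the test.

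Below the signal needed for the test lay members with reads in 1 group only. ATMG00090 had no read in any control library on this day and a signal of 9.0, 12, 7.11, 1.56 and 6.20 in Mg-deficient plants, from 2 to 12 reads a library. Against a floor of 3 reads over the control group it was at least 7.43-fold higher in CPM, the reads scaled to the library total. ATMG00570 likewise had no control read and 1 to 6 reads in the 5 Mg-deficient libraries, at least 2.86-fold higher. With no filter on low signal these 2 and ATMG00660 joined the members that rose. The share of all genes that rose without the filter is not given here, so that this supports no count of members. The control libraries of this day also had reads on fewer genes, and what part that had in these values was not tested.

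In expanding leaves on day 5, 2 of 11 members tested fell and none rose, against 14.8% of all genes that fell and 13.7% that rose (limma). At an unadjusted p under 0.05, 3 members were lower, against 24.7% of all genes. They were ATMG00020, ATMG00670 and ATMG00090, and the last of these also passed the limit of 5 only through the control group. The median log2 fold change was -0.45 for the members and -0.34 for all genes. ATMG00020 had a signal of 190, 173, 69.8, 248 and 333 in control plants and 20.4, 64.6 and 76.1 in Mg-deficient plants. The groups overlapped through control library 3 alone. The log2 fold change was -1.93 ± 0.53 (adjusted p = 0.022, limma). It was -1.35 without Mg-deficient library 1, the library with reads on the fewest genes (adjusted p = 0.043), and the call was lost without control library 4 (adjusted p = 0.054) or control library 5 (adjusted p = 0.052). ATMG00670 had a signal of 9.80, 19.9, 15.8, 15.8 and 14.6 in control plants and 0.108, 0.0320 and 6.88 in Mg-deficient plants, from 9 to 23 reads and 0, 0 and 7 reads a library. All control libraries lay above all Mg-deficient libraries, as they did for 17.8% of all genes tested. The log2 fold change was -2.93 ± 0.74 (adjusted p = 0.015, limma), and leaving out any 1 library kept the call. Without Mg-deficient library 1 it was -2.47 (adjusted p = 0.022, limma), and 4 members were then called in the table in place of 2. ATMG00670 passed the limit of 5 only through the control group, so that its call is a description and supports no count of members.

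The other members varied in direction on this day. ATMG00090 had a signal of 10.8, 9.38, 18.8, 3.93 and 7.35 in control plants and 0.121, 1.10 and 6.87 in Mg-deficient plants, and its log2 fold change of -1.92 ± 0.76 missed the threshold (adjusted p = 0.079, limma). ATMG01380 had 33.5 to 56.8 in control plants and 71.5, 8.69 and 15.5 in Mg-deficient plants, so that library 1 lay above and libraries 2 and 3 below all control libraries (log2 fold change -1.0 ± 0.58, adjusted p = 0.21, limma). With libraries weighted by their fit it was -1.79 and passed the test (adjusted p = 0.0084). ATMG01390 had 34.4 to 89.1 in control plants and 38.5, 60.4 and 77.1 in Mg-deficient plants, with a log2 fold change of -0.08 ± 0.37 whose 95% interval in the fit ran from -0.89 to 0.73. Without ATMG00020, ATMG01390 and ATMG01380 the mitochondrial shares of the groups overlapped, at 0.00556% to 0.00904% in control plants and 0.00468% to 0.00729% in Mg-deficient plants. The chloroplast-encoded share, at 1.10% to 2.69% and 1.23% to 1.39%, overlapped as well.

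**Figure D4:**
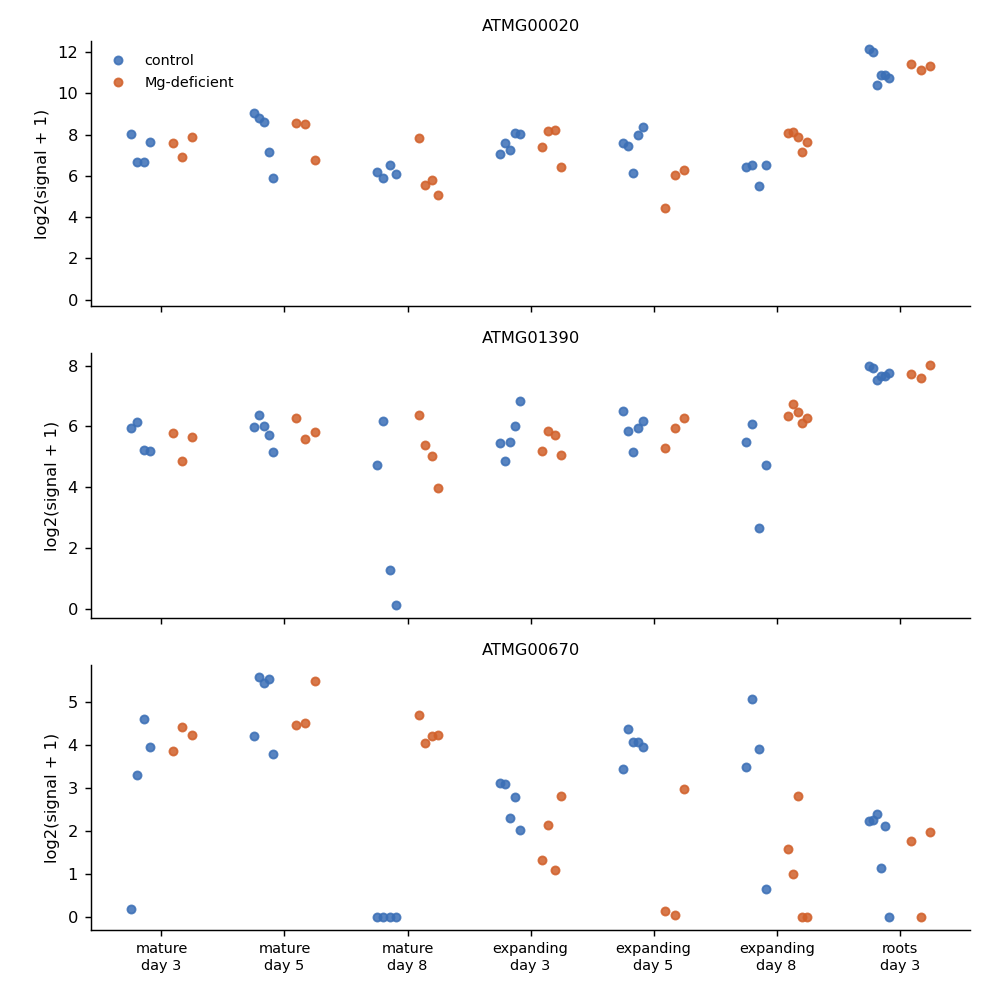
Deposited signal on the log2(signal + 1) scale of ATMG00020, ATMG01390 and ATMG00670 in every library of the 7 tables, control and Mg-deficient side by side. Levels are comparable within a table only, since tables were normalised separately. ATMG00670 is at 0 in the 4 control libraries of mature leaves on day 8 and at 15.6 to 25.1 before the log in the Mg-deficient ones, and it lies the other way round in expanding leaves on day 5.

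In mature leaves on day 8, 1 of 13 members tested rose and none fell, against 3.43% of all genes that rose and 0.173% that fell (limma). At an unadjusted p under 0.05, 3 members were higher, against 18.3% of all genes. They were ATMG00670, ATMG00180 and ATMG01380. The first and second of these passed the limit of 5 only through the Mg-deficient group, so that the count is a description. The median log2 fold change was 1.07 for the members and 0.91 for all genes. The shift of the median of all genes depended on the scaling: it was -0.80 after median-of-ratios scaling, and the median of the members was then -0.27. The called member was again ATMG00670, with a signal of 0 in the 4 control libraries and 25.1, 15.6, 17.7 and 17.9 in the Mg-deficient libraries, from 21, 10, 30 and 34 reads. It was the one member with no read in any control library and at least 10 reads in each Mg-deficient library. Against a floor of 3 reads over the control group it was at least 21.2-fold higher (16.7 against at most 0.788 in CPM). In the fit its log2 fold change was 4.30 ± 1.07 (adjusted p = 0.026, limma), a value that depends on the pseudocount. As its control libraries were all at 0, it passed the limit of 5 only through the Mg-deficient group and had to differ, so that its call is a description and supports no count of members. The call did not survive leaving out control library 2 or 3, Mg-deficient library 1, 3 or 4 (adjusted p = 0.073, 0.077, 0.051, 0.072 and 0.078, limma), or control libraries 2, 3 and 4 together (adjusted p = 0.14, where the lone control library is assumed to vary like the Mg-deficient ones), nor a pseudocount of 5 (adjusted p = 0.056) or median-of-ratios scaling (adjusted p = 0.070). The remaining control library, library 1, with 14627 genes with a read, also had no read on ATMG00670.

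Further members of this table pointed upwards without passing the test. ATMG01380 had a signal of 23.7, 17.8, 0.993 and 10.3 in control plants and 48.3, 76.4, 36.9 and 25.7 in Mg-deficient plants. The groups did not overlap, as was so with Mg-deficient plants higher for 9.56% of all genes tested (log2 fold change 2.13 ± 1.04, adjusted p = 0.25, limma). ATMG00180, the cytochrome c biogenesis gene, had 0, 0.213, 0.238 and 9.15 in control plants and 8.63, 17.2, 5.18 and 14.3 in Mg-deficient plants (log2 fold change 2.52 ± 1.16, adjusted p = 0.22, limma). It passed the limit of 5 only through the Mg-deficient group, so that its result is a description. Its counterpart by the RefSeq note is AT2G07815 on chromosome 2. That gene had 0 in all 4 control libraries and 7.74, 4.34, 27.2 and 29.0 in Mg-deficient plants (adjusted p = 0.039, limma). As AT2G07815 also passed the limit of 5 only through the Mg-deficient group, its call is likewise a description. Reads from sequence that the loci share cannot be told apart. ATMG01390 had 25.5, 71.5, 1.4 and 0.0762 in control plants and 81.9, 41, 31.4 and 14.6 in Mg-deficient plants. ATMG00020 had 58.6 to 90.5 in control plants and 230, 45.8, 54.0 and 32.4 in Mg-deficient plants, 1 library above and 3 below all control libraries. From 3 to 16 members had a read in a control library, and from 18 to 36 in a Mg-deficient one, beside the fewer genes with a read in control libraries 2 to 4.

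In mature leaves on days 3 and 5 none of the 16 and 22 members tested was called, and none of all genes was (0% on either day, limma). Voom on the recovered reads called no member either. At an unadjusted p under 0.05, 1 member was higher and none lower on day 3, against 1.25% of all genes higher. On day 5 there was none, against 2.52% of all genes higher and 4.43% lower. That member was COX3, with a signal of 0.0215, 2.76, 0.00728 and 2.07 in control plants and 6.54, 24.7 and 5.92 in Mg-deficient plants, from 0 to 3 and 6 to 22 reads. The groups did not overlap, as with Mg-deficient plants higher for 2.18% of all genes tested (log2 fold change 2.57 ± 1.18, adjusted p = 0.98, limma). COX3 passed the limit of 5 only through the Mg-deficient group, so that its result is a description and supports no count of members. As its sequence is identical to that of AT2G07687, these reads cannot be assigned to the mitochondrion by sequence. ATMG01170 had 1.24, 4.28, 28.6 and 12.5 in control plants and 16.6, 69.1 and 13.8 in Mg-deficient plants on day 3 (log2 fold change 1.67 ± 0.85). The median log2 fold change was 0.49 for members and -0.04 for all genes on day 3, and 0.04 and -0.02 on day 5.

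On day 5, ATMG01370 was the one member whose groups did not overlap, at 23.4, 19.9, 22.0, 32.0 and 51.0 in control plants and 14.0, 16.0 and 16.5 in Mg-deficient plants. With Mg-deficient plants lower this held for 2.54% of all genes tested (log2 fold change -0.81 ± 0.48, adjusted p = 0.76, limma). ATMG00040 had 6.20 to 19.6 in control plants and 1.32, 4.18 and 8.20 in Mg-deficient plants (log2 fold change -1.41 ± 0.75). ATMG00020 varied more within the groups than between them, from 58.3 to 532 in control plants and from 107 to 375 in Mg-deficient plants (log2 fold change 0.04 ± 0.57). Of the remaining members named by rank of p, ATMG00580 had a log2 fold change of -0.71 ± 0.53 and ATMG00690 one of 0.46 ± 0.41.

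In expanding leaves on day 3 and in roots on day 3 no member was called, of 6 and 7 tested, against 0.229% and 0.201% of all genes (limma). Neither table had a member at an unadjusted p under 0.05, whereas 4.53% of all genes were higher and 3.44% lower at that limit in the leaves and 4.81% and 6.12% in the roots. Voom called none. ATMG00020 had 133 to 272 in control plants (median 195) and 84.7 to 299 in Mg-deficient plants in expanding leaves, with a log2 fold change of -0.05 ± 0.30. ATMG00690 was the member with the smallest p there, at 21.7, 6.47, 12.7, 19.9 and 8.78 in control plants and 9.89, 12.9, 0.0985 and 5.11 in Mg-deficient plants (log2 fold change -1.27 ± 0.71, adjusted p = 0.69, limma). ATMG01370 (0.84 ± 0.88), ATMG01390 (-0.28 ± 0.35) and ATMG01380 (0.20 ± 0.46, log2 fold changes) were no nearer to the threshold.

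In roots the most abundant member was measured with 1243 to 4913 reads in a library, yet its spread was wide. ATMG00020 had a signal of 4494, 4075, 1345, 1877, 1904 and 1727 in control plants and 2742, 2257 and 2570.1 in Mg-deficient plants. All Mg-deficient libraries lay between control libraries 1 and 2 and the other 4 (log2 fold change 0.12 ± 0.25). Control library 3, the lowest, had a leaf marker sum of 625, while the lowest of the control libraries had 40.2 and the Mg-deficient libraries 20.01 to 73.3. Whether leaf material had a part in its level of ATMG00020 was not tested. Without that library the log2 fold change of ATMG00020 was -0.03 ± 0.22. With every library kept but weighted by its fit the log2 fold change was -0.019, so that the sign was not settled. ATMG01390 was even, at 185 to 253 in control plants and 192 to 257 in Mg-deficient plants (log2 fold change 0.02 ± 0.15), and ATMG01380 had 15.5 to 57.0 and 27.9 to 51.1 (0.27 ± 0.30). ATMG00580 (0.67 ± 0.59) and ATMG00830 (0.33 ± 0.41) had log2 fold changes within their error. ATMG00670 was under the limit for a test in roots, at 0 to 4.28 in control plants and 0 to 2.96 in Mg-deficient plants.

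**Figure D5:**
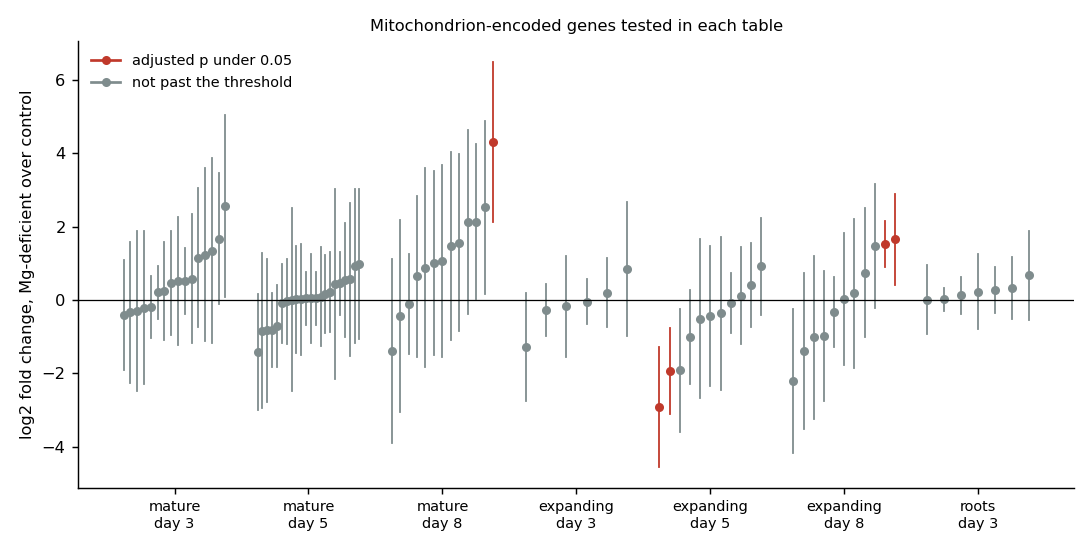
Log2 fold change (Mg-deficient minus control, log2(signal + 1) scale) of every member tested in each of the 7 tables with its 95% interval; red marks an adjusted p under 0.05. The 5 red points are ATMG00670 in mature leaves on day 8 and in expanding leaves on day 5, ATMG00020 in expanding leaves on days 5 and 8, and ATMG01390 in expanding leaves on day 8.

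The named members outside these accounts were low throughout. ATMG00513, ATMG01360, ATMG00640 and ATMG00080 had a row in all 7 tables, with signals from 0 to at most 59.1, 32.2, 33.4 and 15.4. ATMG00570 and ATMG00520 had a row in 4 and 5 tables, with at most 5.98 and 10.5. None of these 6 was called, and ATMG00570 and ATMG00520 were tested in no table. ATMG00410, the ATP synthase gene, had log2 fold changes of 1.24 ± 1.13 and 0.97 ± 0.97 in mature leaves on days 3 and 5 and -0.36 ± 0.95 in expanding leaves on day 5. The 39 members tested in no table had 1 to 114 reads each over all libraries (median 21), and 11 of them had fewer than 10. ATMG00516 had the most reads of these, 114 in 34 libraries of the 7 tables. The highest mean of a group was 8.02, for ATMG01350.

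The response was compared between tables for 6 pairs, by the difference of the log2 fold changes over its standard error, adjusted over all genes tested in both. Between expanding and mature leaves on day 8, 1 of 9 members differed, against 1.73% of all genes. It was ATMG00670, whose log2 fold change was -2.20 in expanding and 4.30 in mature leaves, a difference of -6.51 ± 1.4 (SE, adjusted p = 0.040). The mature control libraries that stood apart, and in which it was at 0, entered this difference, so that it is likewise a description. It was lost after median-of-ratios scaling, at -6.01 (adjusted p = 0.14), and kept with a pseudocount of 5 (adjusted p = 0.032). Between days 8 and 5 of expanding leaves, 1 of 8 members differed, against 9.03% of all genes. ATMG00020 moved by -1.93 on day 5 and by 1.53 on day 8, a difference of 3.46 ± 0.61 (adjusted p = 0.013). Its control libraries were at 69.8 to 333 on day 5 and 44.8 to 92.1 on day 8, and its Mg-deficient libraries at 20.4 to 76.1 and 144 to 274, but levels of separate tables are not on a common scale. By the same test the difference of ATMG00020 was 2.54 after median-of-ratios scaling (adjusted p = 0.014). The number of genes with a read differed between the groups in opposite directions on these days, and its part was not tested. On day 5, none of 11 members differed between expanding and mature leaves, against 12.8% of all genes, with 3 at an unadjusted p under 0.05. One of these was ATMG00670, with a difference of -2.84 ± 0.90 (adjusted p = 0.061). None of 5 differed between days 5 and 3 of expanding leaves (10.7% of all genes). Between expanding and mature leaves on day 3 (6 members) and between roots and expanding leaves on day 3 (5 members) none differed, and 0% of all genes did.

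Nuclear genes for mitochondrial proteins were followed in the same fits. A list of 36 nuclear genes for respiratory chain and ATP synthase subunits had 21 members that rose and none that fell in expanding leaves on day 8, 6 that rose and 1 that fell on day 5, and 2 that rose in mature leaves on day 8 (limma). Of all genes, 30.8% were called higher and 14.9% lower in expanding leaves at day 8, and 13.7% higher and 14.8% lower at day 5. In mature leaves at day 8, 3.43% were higher. The day 5 count that rose lay near the share of all genes that rose. The count of 1 that fell lay below the 14.8% of all genes. In the other 4 tables none was called. The median log2 fold change of the list was 0.96 on day 8 of expanding leaves, beside 0.63 for all genes, 0.26 beside -0.34 on day 5, and 1.2 beside 0.91 in mature leaves on day 8. After median-of-ratios scaling, which shifted the median of all genes by -0.61, 0.31 and -1.71 in these tables, 8 were called in expanding leaves on day 8, 12 on day 5, and none in mature leaves. In mature leaves on day 8 none was called without control libraries 2, 3 and 4 or without Mg-deficient library 4, while 1 was called when control library 2, control library 3 or Mg-deficient library 3 was left out, and 4 when control library 1 was. In expanding leaves on day 5, 11 rose or fell without Mg-deficient library 1.

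Cytochrome c, the soluble carrier between complexes III and IV, was among the genes that rose. The level of CYTC-1 was 400.4 ± 63.8 (SD, n = 4) in control plants and 1996 ± 257 (n = 5) in Mg-deficient plants in expanding leaves on day 8 (log2 fold change 2.32, adjusted p = 1.0e-06, limma), and 578 ± 33.4 and 1249.7 ± 112 on day 5 (1.11, adjusted p = 0.0022). In mature leaves on day 8 it had 85.4 ± 62.5 and 367 ± 59.8 (2.48, adjusted p = 0.013). CYTC-2 had 40.6 ± 29.5 and 436 ± 40.5 in expanding leaves on day 8 (4.0) and 52.8 ± 13.7 and 278 ± 78.9 on day 5 (2.37). AT5G25450, a small subunit of complex III, had 2.19 ± 4.25 and 86.0 ± 19.5 on day 8 and 3.73 ± 2.65 and 143 ± 77.4 on day 5. Its control means lay under the limit of 5, so that it entered the test through the Mg-deficient group and its calls are descriptions. AT5G13440, the iron-sulphur subunit of complex III, rose on day 5 from 103 ± 10.0 to 209 ± 34.4. The ATP synthase beta subunit genes AT5G08690 and AT5G08670, near-identical copies between which reads may have been split, rose on day 8 from 155 ± 29.7 to 422 ± 48.0 and from 125 ± 34.8 to 334 ± 37.6. The gene that fell on day 5 was AT5G52840, an NADH-ubiquinone oxidoreductase (complex I) gene, at 260 ± 24.7 and 154 ± 25.9, and it was named after its values were seen.

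Of 20 nuclear genes for the upkeep and expression of mitochondrial DNA and RNA, 8 of 14 tested rose in expanding leaves on day 8 and 2 of 14 on day 5, and none fell. All genes rose at 30.8% and 13.7% in these tables, and the day 5 count was near that share. No gene of this list was called in the other 5 tables. AT5G14580, a polyribonucleotide nucleotidyltransferase, an enzyme that degrades and trims RNA from its 3′ end, had 7.20 ± 14.2 in control plants and 75.5 ± 14.7 in Mg-deficient plants on day 8 (log2 fold change 4.90, adjusted p = 0.00073, limma) and 7.82 ± 5.53 and 69.8 ± 35.8 on day 5 (3.14, adjusted p = 0.0064). Its control SD on day 8 was above the control mean, so that the control libraries were uneven and the size of its change is uncertain. The phage-type RNA polymerase gene MGP3 had 16.7 ± 3.05 and 55.7 ± 37.4 on day 5 (1.51, adjusted p = 0.032). On day 8, BIR6, a pentatricopeptide protein for splicing of nad7, was at 0 in all 4 control libraries and at 18.2 ± 7.96 in Mg-deficient plants. MTSF1, the mitochondrial stability factor 1, was likewise at 0 and at 9.87 ± 4.40, and WTF9, which takes part in the splicing of group II introns, at 1.10 ± 2.13 and 9.65 ± 4.03. These low control values stood beside the fewer genes with a read in the control libraries of that day. BIR6, MTSF1 and WTF9 passed the limit of 5 only through the Mg-deficient group, so that their calls are descriptions. The count of 8 that rose includes them, so that it supports no excess over the share of all genes. After median-of-ratios scaling 4 of the list were called on day 8, and 5 without Mg-deficient library 1, 2, 4 or 5. On day 5 a single gene was called without control library 1, 2, 4 or 5, and in mature leaves on day 8, 4 were called without control library 1.

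The genome of the other organelle and the nuclear copy were followed in the same fits. Of the chloroplast-encoded genes, 20 of 62 fell in expanding leaves on day 5, 20 of 47 on day 8 and 1 of 38 in mature leaves on day 8, and none rose in these tables. Of all genes 14.8%, 14.9% and 0.173% fell there. Of the genes of the chromosome 2 insertion, 2 of 8 fell in expanding leaves on day 8, where 14.9% of all genes did. AT2G07774 had a signal of 7.12, 29.5, 44.7 and 24.9 in control plants and 0 to 2.0 in Mg-deficient plants (adjusted p = 0.0010, limma), and AT2G07678 had 23.3, 0, 28.6 and 18.2 and 0 to 1.0 (adjusted p = 0.016). Both passed the limit of 5 only through the control group, so that their calls are descriptions. In the same table the members ATMG00020 and ATMG01390 rose. Adding the signal of the chromosome 2 genes named by the notes to that of the members, which was chosen after seeing the data, changed the call of no named member.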

How the data were processed

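RNA of Arabidopsis thaliana leaves (mature and expanding) and roots was sequenced, strand-specifically, in single 50-base reads. The deposited tables, 1 per tissue and day, hold a normalised signal per gene that the authors made with R 3.5.0 (per the submitters' processing notes, build TAIR10): read counts adjusted to a common library size. The mapper is not given in the sources used here. Whole reads were recovered by undoing that adjustment (dispersion 0.05), which gave 99.888% to 100% whole values per library within 0.001, and supplied the depths; voom on them called 479, 4342 and 7083 genes in mature leaves on day 8 and expanding leaves on days 5 and 8. The reference was TAIR10.1, so no coordinates of tables were used.

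Within each table, Mg-deficient plants were compared with control plants by limma 3.58.1 (R 4.3.3) on log2(signal + 1), with a trend, where the mean signal of a gene was at least 5, Benjamini-Hochberg adjusted over the table at 0.05 (2-sided). The fit was tested on simulated data. Shares were computed with Python 3.11.15 and got no test. Responses were compared between tables, taken as independent, by the difference over the root of the summed squared standard errors. Replicates are separate composites of plants.

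The text names each member called, the 4 with the smallest p per table, the 2 most abundant of each of 7 groups made by hand by presumed role (a role that no source used here gives is not printed), the ATMG loci in the study's gene lists, up to 4 called genes with the smallest p per nuclear list and table, and chromosome 2 counterparts. Members and lists were chosen with earlier results of these data known. Alternatives were the pseudocount, filter, scaling, voom, array weights, nuclear total, sums with chromosome 2 copies, a replicate block and leaving out libraries. The main fits used every library.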

Additional observations from a re-analysis of the deposited data

Results flagged for a closer look

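In groups of 4 to 10 libraries, a value far from the rest of its group was found 5 times in 60 groups examined, where chance gives about 1 in 20 groups. COX3 (ATMG00730) had a signal of 16.6 in control library 2 of mature leaves on day 8, with 0 to 0.348 in the other control libraries, and 5.28 in Mg-deficient library 1 of expanding leaves on day 3, with 0 to 0.0221 in the others. ATMG00020 had 230 in Mg-deficient library 1 of mature leaves on day 8, with 32.4 to 54.0 in the others. It had 44.8 in control library 3 of expanding leaves on day 8, with 84.0 to 92.1 in the others, and its log2 fold change was 1.28 without that library and 1.53 with it. ATMG01380 had 56.0 in Mg-deficient library 4 of expanding leaves on day 3, with 25.8 to 27.3 in the others.

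The response differed between tables by a test of the difference in 2 cases. The log2 fold change of ATMG00670 was lower in expanding than in mature leaves on day 8 by a difference of -6.51 (adjusted p = 0.040). This case is a description, as ATMG00670 had no read in any mature control library. By the same test it was lost after median-of-ratios scaling (adjusted p = 0.14). The log2 fold change of ATMG00020 was higher on day 8 than on day 5 of expanding leaves by 3.46 (adjusted p = 0.013). After median-of-ratios scaling this difference was 2.54 by the same test (adjusted p = 0.014). The number of genes with a read differed between the groups in opposite directions on these days.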

How the results depend on the processing

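Sign, call and count were kept in most alternatives run. The members called in mature leaves on day 8 went from 1 to 0 with a pseudocount of 5, a mean signal of at least 20, median-of-ratios scaling, or without the 3 control libraries with few genes. In expanding leaves on day 5 they went from 2 to 1 with a mean signal of at least 20, and on day 8 from 2 to 5 with no filter and to 1 with voom. The count with no filter stands without the share of all genes and is a description. Leaving out 1 library gave 0 to 1, 1 to 4 and 1 to 2 members called in these tables. The median log2 fold change of the members became -0.27 in mature leaves on day 8 and -0.94 in expanding leaves on day 8 with median-of-ratios scaling, 0.22 in expanding leaves on day 3 with no filter, -1.0 and 1.53 on days 5 and 8 with a mean signal of at least 20, and -0.014 on day 5 with array weights. The difference of the shares without ATMG00020, ATMG01380 and ATMG01390 was -0.0011 percentage points in expanding leaves on day 5 and -0.0042 on day 8, and with all members -0.0087 and 0.0043.

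Nuclear respiratory genes called were 0 in mature leaves on day 8 and 12 and 8 in expanding leaves on days 5 and 8 with median-of-ratios scaling, and 0 in mature leaves on day 8 without the 3 control libraries. With single libraries left out they were 0 to 4, 6 to 11 and 20 to 24. Genes of mitochondrial DNA and RNA upkeep numbered 4 on day 8 of expanding leaves with median-of-ratios scaling, and 0 to 4 in mature leaves on day 8, 1 to 3 in expanding leaves on day 5 and 5 to 10 on day 8 with libraries left out. The members that differed between expanding and mature leaves on day 8 went to 0 with median-of-ratios scaling.

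Small log2 fold changes changed sign: ATMG00020 in mature leaves on day 5 to -0.23 (array weights), in expanding leaves on day 3 to 0.035 (voom) and 0.019 (equal nuclear total), and in roots to -0.019 (array weights); ATMG00670 in mature leaves on day 5 to 0.10 (voom); ATMG01380 in expanding leaves on day 3 to -0.13 (array weights); and ATMG01390 in expanding leaves on day 5 to 0.21 (median of ratios) and 0.022 (voom) and in roots to -0.012 (array weights). With libraries left out, ATMG00020 ranged from -0.017 to 0.49 (mature, day 3), -0.46 to 0.63 (mature, day 5), -0.71 to 0.22 (mature, day 8), -0.27 to 0.33 (expanding, day 3) and -0.034 to 0.31 (roots), ATMG00670 from -0.43 to 0.086 and ATMG00730 from -1.72 to 0.49 (both mature, day 5), ATMG01380 from -0.23 to 0.47 (expanding, day 3), and ATMG01390 from -0.36 to 0.098 (mature, day 3), -0.14 to 0.20 (mature, day 5), -0.30 to 0.19 (expanding, day 5) and -0.10 to 0.11 (roots). The cause of these changes was not tested.

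The replicate numbers did not pair the samples: over 24 same-numbered pairs the deviations correlated from -0.097 to 0.17, no table had every pair above 0.1, and 4 samples were best correlated with their own number. With the replicate block the members called were 0 in expanding leaves on day 5, 2 on day 8 and 1 in mature leaves on day 8. On day 5 of expanding leaves, ATMG00670 was then at -2.91 (adjusted p = 0.13, limma) and ATMG00020 at -1.48 (adjusted p = 0.16). The block gave log2 fold changes of -0.88 (mature, day 5), 0.060 (expanding, day 3) and -0.21 (roots) for ATMG00020, -0.11 for ATMG00830 in roots, -0.056 for ATMG01380 in roots, and -0.23 (mature, day 5), 0.016 (expanding, day 5) and -0.047 (roots) for ATMG01390.

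The planned sum with genes of identical protein was not run, and the sum by note stands in its place. At 108 to 1063 member reads in a leaf library, 39 of the 61 members stayed under the limit for the test.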

Other observations

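In mature leaves on day 5, control libraries 4 and 5 and Mg-deficient library 3 had a chloroplast-encoded share of 0.508%, 0.644% and 0.658%, and the other 5 libraries had 1.88% to 2.65%. The same 3 libraries had the lowest signal of ATMG00020, at 140, 58.3 and 107, against 363 to 532 in the others, and the lowest mitochondrion-encoded shares, at 0.0303%, 0.0226% and 0.0287%. They came from both groups, and the other 5 libraries had shares of 0.0395% to 0.0520%.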
